A study of Homo sapiens with 12 samples.

Results

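The 8 genes ABCA13, MAP2, SORL1, CNTN1, GPAT3, SYTL5, THSD7A and LCP1 were chosen by their falls against scrambled control siRNA in these same libraries, from 44341 gene intervals of which 19154 are protein-coding. Each has 1 protein-coding interval in the count table. Because the choice used both comparisons with scrambled, the fold changes of these genes are given as a description, without a test. RNA was sequenced from A172, an established human glioblastoma cell line, to find genes that change when uc.110, an ultraconserved region of the genome, is targeted. The 3 groups of 4 libraries each were cells given scrambled control siRNA, cells given siRNA-1 against uc.110 and cells given siRNA-2 against uc.110. All cells are labelled wild type. Every well was transfected alike for 6 h, using 3 µL of a 20 µM siRNA stock together with 9 µL of Lipofectamine, and collected on day 2. Nothing in the labels shows that the libraries within a group were separate cultures, and p-values therefore measure only the spread between these libraries, which may be technical.

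The siRNAs are short RNA duplexes whose guide strand directs the cleavage or silencing of transcripts that pair with it. The 8 genes do not belong to one pathway. ABCA13 encodes a large membrane transporter of the ATP-binding cassette A subfamily, and SORL1 a sorting receptor that moves cargo between the Golgi and endosomes. CNTN1 encodes a neural adhesion molecule anchored to the outer face of the cell membrane, and THSD7A a membrane protein with thrombospondin type 1 repeats. MAP2 encodes a microtubule-associated protein best known from dendrites, LCP1 the actin-bundling protein L-plastin, best known from leukocytes, SYTL5 a vesicle protein of the synaptotagmin-like family that binds RAB27, and GPAT3 an acyltransferase for the first step of glycerolipid synthesis.

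Promoters are shown first for the 4 genes whose siRNA-1 and siRNA-2 libraries did not overlap. They are the 250 bases before the annotated start, read 5′ to 3′ on the strand of the gene, from RefSeq on GRCh38.p14, in lower case. Capitals mark matches to any of 10 short motifs on either strand. ABCA13 (chr7:48171208-48171457, plus strand) and SORL1 (chr11:121452064-121452313, plus) were lower with siRNA-2 than with siRNA-1. CNTN1 (starts at chr12:40827934-40828183 and chr12:40908107-40908356, plus) and GPAT3 (chr4:83535857-83536106, plus) were lower with siRNA-1. Both CNTN1 windows lie well inside its counted interval, which begins at chr12:40692429, and the sequence before that end is not shown.
ABCA13: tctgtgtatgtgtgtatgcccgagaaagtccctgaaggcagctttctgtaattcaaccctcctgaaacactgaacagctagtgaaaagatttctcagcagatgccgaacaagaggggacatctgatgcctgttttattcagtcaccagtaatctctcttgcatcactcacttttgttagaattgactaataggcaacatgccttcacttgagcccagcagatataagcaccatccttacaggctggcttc
SORL1: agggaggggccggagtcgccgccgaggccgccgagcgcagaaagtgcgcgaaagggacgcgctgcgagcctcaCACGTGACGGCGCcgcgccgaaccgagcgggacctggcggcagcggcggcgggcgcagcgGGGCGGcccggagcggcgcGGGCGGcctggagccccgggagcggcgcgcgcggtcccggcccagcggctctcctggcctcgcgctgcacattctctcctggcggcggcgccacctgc
CNTN1 start 1: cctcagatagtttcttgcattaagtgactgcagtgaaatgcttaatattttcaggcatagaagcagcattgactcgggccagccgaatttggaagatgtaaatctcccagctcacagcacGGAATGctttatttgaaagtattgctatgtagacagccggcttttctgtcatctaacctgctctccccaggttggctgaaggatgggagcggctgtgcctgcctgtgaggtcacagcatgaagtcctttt
CNTN1 start 2: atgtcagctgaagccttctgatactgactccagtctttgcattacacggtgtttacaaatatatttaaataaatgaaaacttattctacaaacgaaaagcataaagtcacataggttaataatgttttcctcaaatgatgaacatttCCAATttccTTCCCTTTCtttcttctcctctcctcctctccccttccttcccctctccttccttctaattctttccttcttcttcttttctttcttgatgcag
GPAT3 start 1: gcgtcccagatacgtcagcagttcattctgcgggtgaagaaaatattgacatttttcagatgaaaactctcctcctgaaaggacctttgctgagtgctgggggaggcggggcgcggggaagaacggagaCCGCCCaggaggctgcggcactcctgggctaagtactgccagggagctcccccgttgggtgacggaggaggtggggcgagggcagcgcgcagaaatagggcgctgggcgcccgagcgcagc

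These sequences have little in common. SORL1 has a promoter of 80.4% G and C with 45 CpG, ABCA13 one of 44.8% with 2 CpG, against a median of 62.0% and 16 CpG over 22199 promoters of 15843 genes. The ABCA13 window held no match to any motif. SORL1 held the E-box CACGTG and the antioxidant response element core TGANNNNGC, which overlap there, and GGGCGG, the GC box, at 2 places. CNTN1 held the TEAD motif GGAATG at start 1, and the CCAAT box CCAAT and the interferon-stimulated response element core GAAANNGAA at start 2. GPAT3 held a GC box.

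Over the 13 annotated starts of all 8 genes, GC boxes were found at 4, where 53.7% of all promoters have one. The 2 GPAT3 starts are adjacent bases (chr4:83536107 and chr4:83536108) and share the same GC box, so 3 genes held one. Antioxidant response element cores were found at 5 starts, against 35.0%. The CCAAT box was found at 2 starts (32.7% of all promoters), the interferon-stimulated core at 2, of CNTN1 and MAP2 (6.07%), and the TEAD motif at 2, of CNTN1 and SYTL5 (10.5%). The AP-1 motif TGANTCA was found at 1 start, of SYTL5 (5.36%), the E-box at 1 (7.37%) and the TATA box TATAAA at 1, of LCP1 (9.0%). The gamma-activated site TTCNNNGAA (5.92%) and the cyclic AMP response element TGACGTCA (2.01%) had no match. No motif was found in all 8 genes, and a match is a match of letters only. The windows of MAP2 and SYTL5, like those of CNTN1, lie well inside their counted intervals, which begin at chr2:209424047 and chrX:37888915.

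The libraries held 42749049 to 52910697 reads over the gene intervals. Reads of 45S ribosomal RNA came to 1.703 to 5.092% in 10 libraries, 8.578% in siRNA-2 replicate 2 and 15.009% in siRNA-1 replicate 3. Scrambled replicate 1 had reads in 1555 intervals where no other library had any, against 86 to 167 for the rest. uc.110 itself (chr2:236162738-236162980) held few reads. The scrambled libraries had 4, 0, 1 and 6 of them, the siRNA-1 libraries 2, 0, 1 and 2, and the siRNA-2 libraries 3, 0, 4 and 0. These counts are too low to show whether the target was lowered. MAP2 is the only one of the 8 genes on the chromosome of uc.110, 26.4 Mb away. Glial identity was partly visible, with 7 of 10 astroglial and glioma markers above 1 CPM (CPM, counts scaled to a common library size by TMM), VIM, whose interval overlaps VIM-AS1, at 2644 CPM and GFAP, whose reads may all be shared with CCDC103, at 6.29 CPM, but AQP4, S100B and SLC1A3 at or near 0.

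All 8 genes fell with both siRNAs, and none fell with only one. In every one of them the 4 siRNA-1 libraries lay below the 4 scrambled libraries, as did the 4 siRNA-2 libraries. Over the 24931 genes tested, 22.2% had all siRNA-1 libraries below scrambled and 24.0% all siRNA-2 libraries, and 24.8% and 26.1% were called lower at an adjusted p of 0.05. These shares are printed as background, since the choice of the genes fixed their own counts. The median log2 fold change of the 8 genes was -2.03 with siRNA-1 and -1.66 with siRNA-2, where that of all genes tested was 0.01 and 0.01. In bulk RNA, fewer cells expressing a gene and less RNA per cell cannot be told apart.

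**Figure D1:**
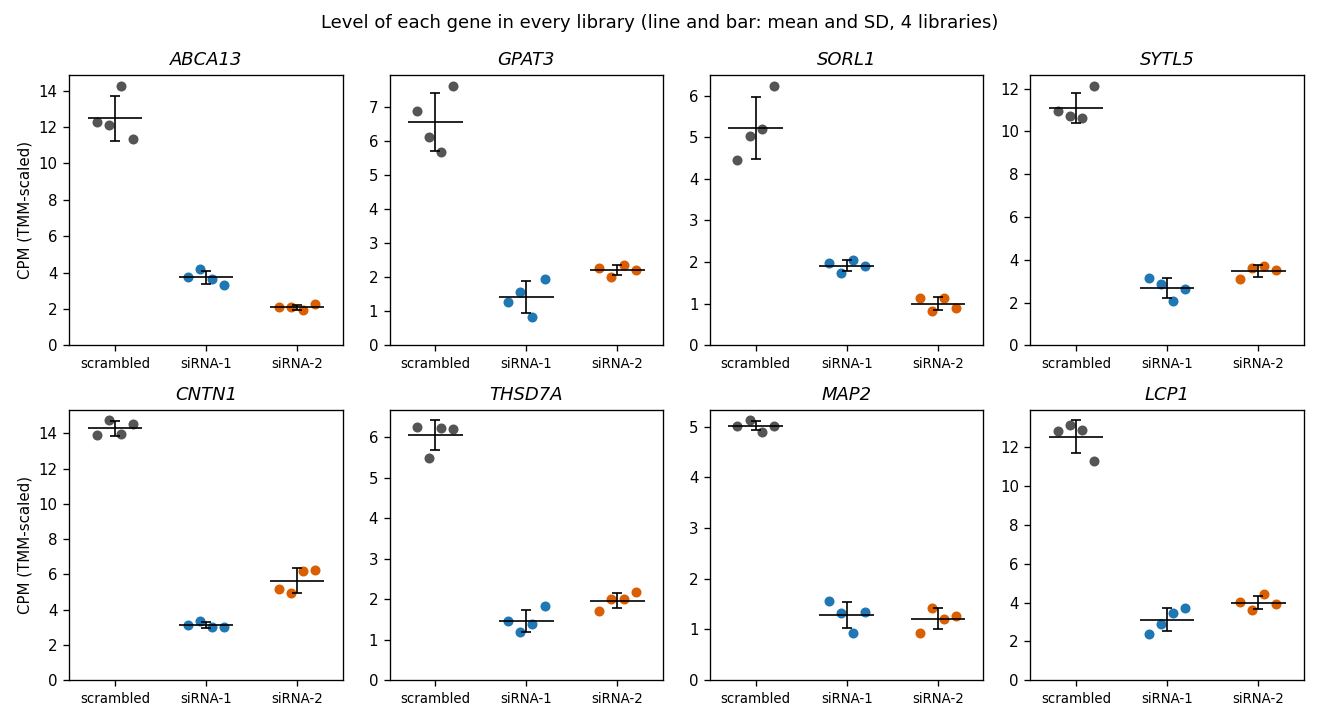
Level of each of the 8 genes in CPM on TMM-scaled library sizes (vertical axis, from 0) in the 4 scrambled, 4 siRNA-1 and 4 siRNA-2 libraries; points are libraries, lines and bars the mean and SD. In all 8 panels every siRNA library sits below every scrambled library, and ABCA13 and SORL1 go lowest with siRNA-2 while CNTN1 and GPAT3 go lowest with siRNA-1.

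ABCA13 and SORL1 were lowered most by siRNA-2. ABCA13 (chr7:48171424-48647497, plus strand) stood at 12.2, 12.1, 14.2 and 11.3 CPM in scrambled replicates 1 to 4. Its levels were 3.76, 4.21, 3.66 and 3.33 CPM in the siRNA-1 libraries and 2.10, 2.11, 1.92 and 2.26 CPM in the siRNA-2 libraries. The 3 groups did not overlap, and the highest siRNA-2 library lay below the lowest siRNA-1 library. The log2 fold change was -1.74 (SE 0.10) with siRNA-1 and -2.57 (SE 0.10) with siRNA-2, which left 30.0% and 16.8% of the scrambled level. The difference between the siRNAs was -0.83 (SE 0.11). No other interval among those used overlaps ABCA13.

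SORL1 (chr11:121450740-121634590, plus) stood at 4.46, 5.04, 5.19 and 6.23 CPM in scrambled replicates 1 to 4. Its levels were 1.98, 1.75, 2.04 and 1.90 CPM in the siRNA-1 libraries and 1.14, 0.827, 1.14 and 0.897 CPM in the siRNA-2 libraries. Again the 3 groups were fully apart. The scrambled libraries were uneven, with replicate 4 highest. The log2 fold changes were -1.45 (SE 0.13) with siRNA-1, the smallest of the 8 genes with that siRNA, and -2.39 (SE 0.14) with siRNA-2. siRNA-2 left 19.1% of the scrambled level and siRNA-1 36.6%, a log2 difference of -0.94 (SE 0.15). Overlapping intervals among those used, such as SORL1-AS1, each held at most 2.35% of the reads of SORL1 in the scrambled libraries.

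CNTN1 and GPAT3 were lowered most by siRNA-1. CNTN1 (chr12:40692429-41072431, plus) stood at 13.9, 14.8, 14 and 14.5 CPM in scrambled replicates 1 to 4. Its levels were 3.11, 3.37, 3.02 and 2.99 CPM in the siRNA-1 libraries and 5.14, 4.95, 6.21 and 6.26 CPM in the siRNA-2 libraries. Here the order of the siRNAs was turned round, with every siRNA-2 library above every siRNA-1 library. The log2 fold changes were -2.19 (SE 0.09) and -1.34 (SE 0.08), the last being the smallest with siRNA-2 among the 8 genes, and the difference between siRNAs was 0.85 (SE 0.09). CNTN1 kept 21.9% of its scrambled level with siRNA-1 and 39.5% with siRNA-2. The antisense interval LOC107984496 lies inside CNTN1, covers 71 bases of its exons and held 9.35% of its reads in the scrambled libraries. That inner interval kept 19.0% and 40.0% of its scrambled CPM, close to CNTN1 itself, and strand was not used in the counting, so its reads cannot be told from those of CNTN1.

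GPAT3 (chr4:83535634-83605885, plus) stood at 6.88, 6.11, 5.68 and 7.61 CPM in scrambled replicates 1 to 4. Its levels were 1.27, 1.58, 0.844 and 1.96 CPM in the siRNA-1 libraries and 2.28, 2.01, 2.37 and 2.2 CPM in the siRNA-2 libraries. The siRNA-1 libraries were the most uneven of any group of the 8 genes (CV 33.5%), and the gap between the highest of them and the lowest siRNA-2 library was narrow. siRNA-1 replicate 3, the library with 15.009% ribosomal RNA, was lowest. The log2 fold change with siRNA-1 was -2.21 (SE 0.17), and -2.06 without that library. Over all alternative fits it ran from -2.42 to -2.06. With siRNA-2 it was -1.57 (SE 0.16), and the difference between the siRNAs was 0.64 (SE 0.18), or 0.47 without siRNA-1 replicate 3. That difference ran from 0.47 to 0.84 over all alternative fits. No other interval among those used overlaps GPAT3.

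SYTL5, THSD7A and LCP1 had a like pattern, with a lower mean in siRNA-1 but overlapping libraries. SYTL5 (chrX:37888915-38129026, plus) stood at 10.9, 10.7, 10.6 and 12.1 CPM in scrambled replicates 1 to 4. Its levels were 3.16, 2.86, 2.09 and 2.61 CPM in the siRNA-1 libraries and 3.10, 3.59, 3.71 and 3.53 CPM in the siRNA-2 libraries. Of the 16 pairs of an siRNA-1 and an siRNA-2 library, 1 had the siRNA-2 library lower. The log2 fold changes were -2.05 (SE 0.11) and -1.67 (SE 0.10), with a difference of 0.38 (SE 0.11). H2AP and MIR548AJ2 lie inside the counted interval of SYTL5. Neither touches an exon of SYTL5 as annotated by GENCODE, but that annotation begins only at chrX:38006582, beyond H2AP. Summed over 4 libraries, H2AP had 32 reads in the scrambled group, 6 in the siRNA-1 group and 7 in the siRNA-2 group, and MIR548AJ2 had 30, 7 and 7. Reads in these stretches fell in the same direction as the whole interval, but they are few.

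THSD7A (chr7:11370365-11832198, minus) stood at 6.26, 5.49, 6.23 and 6.21 CPM in scrambled replicates 1 to 4. Its levels were 1.47, 1.18, 1.38 and 1.83 CPM in the siRNA-1 libraries and 1.70, 1.99, 2.00 and 2.17 CPM in the siRNA-2 libraries. Here siRNA-1 replicate 4 lay above siRNA-2 replicate 1, and the other pairs had siRNA-2 higher. The log2 fold changes were -2.04 (SE 0.13) and -1.62 (SE 0.12), and the difference was 0.42 (SE 0.14). The value of THSD7A is less certain than the others, because LOC105375153 on the other strand overlaps its 3' end and held reads equal to 28.1% of those of THSD7A in the scrambled libraries. LOC105375151, inside THSD7A, held 5.3%.

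LCP1 (chr13:46123877-46187451, minus) stood at 12.9, 13.2, 12.9 and 11.3 CPM in scrambled replicates 1 to 4. Its levels were 2.38, 2.90, 3.47 and 3.71 CPM in the siRNA-1 libraries and 4.03, 3.59, 4.45 and 3.92 CPM in the siRNA-2 libraries. The siRNA-1 libraries were again the uneven ones, and replicate 4 reached into the range of siRNA-2. The log2 fold changes were -2.01 (SE 0.11) and -1.65 (SE 0.11), with a difference of 0.36 (SE 0.11). No other interval among those used overlaps LCP1. Beside this leukocyte gene, 5 of 10 leukocyte markers were above 1 CPM in the scrambled libraries, mainly CSF1R at 247 CPM, whose interval overlaps HMGXB3, and CD68 at 38.6 CPM, while the defining markers CD3E, TYROBP, SPI1 and LYZ were below 1 CPM. Their summed level ran from 283 to 314 CPM in the scrambled group, 264 to 276 CPM in the siRNA-1 group and 331 to 356 CPM in the siRNA-2 group, and its part in the fall of LCP1 was not tested.

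MAP2 (chr2:209424047-209737495, plus) was the gene with the closest values under both siRNAs. It stood at 5.01, 5.12, 4.90 and 5.02 CPM in scrambled replicates 1 to 4. Its levels were 1.56, 1.32, 0.938 and 1.35 CPM in the siRNA-1 libraries and 0.931, 1.43, 1.20 and 1.27 CPM in the siRNA-2 libraries. The scrambled libraries were nearly equal (CV 1.82%), the siRNA libraries scattered at 40 to 76 reads each, and the siRNA groups overlapped. The log2 fold changes were -1.95 (SE 0.15) and -2.05 (SE 0.15), and the difference of -0.09 (SE 0.16) leaves either siRNA possible as the stronger. No other interval among those used overlaps MAP2. Of 11 neuron markers, 5 were above 1 CPM with scrambled siRNA, NEFL at 407 CPM and TUBB3 at 393 CPM among them, and SNAP25, ELAVL3 and ELAVL4 were near 0. Summed over the list, they ran from 824 to 853 CPM in the scrambled group, 696 to 803 CPM in the siRNA-1 group and 713 to 758 CPM in the siRNA-2 group, and their part in the falls of MAP2 and CNTN1 was not tested.

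**Figure D2:**
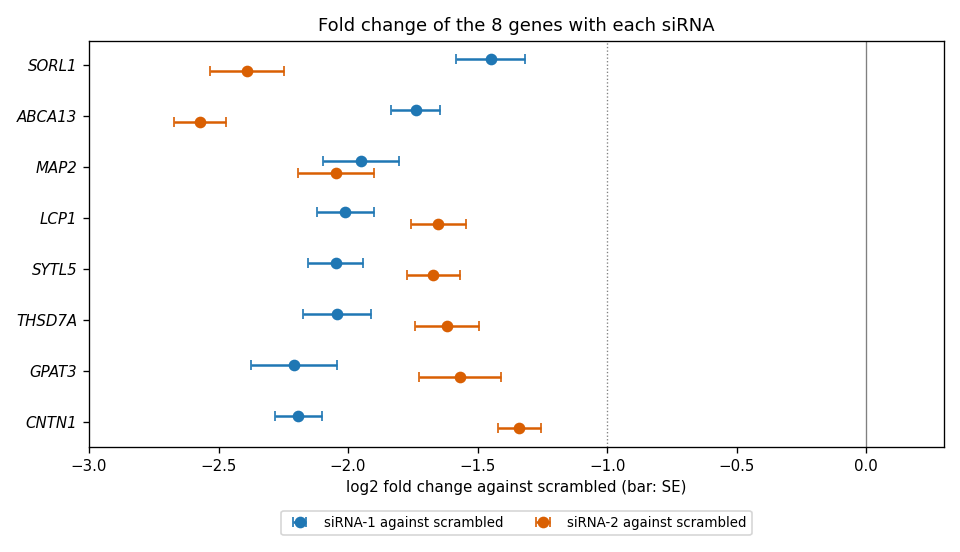
Log2 fold change against scrambled (horizontal axis) of the 8 genes with siRNA-1 and with siRNA-2; points are estimates from 4 libraries a group and bars are SE, ordered by the difference between the siRNAs. SORL1 and ABCA13 lie further left with siRNA-2, MAP2 has overlapping bars, and the other 5 lie further left with siRNA-1.

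Between the siRNAs, 2 of the 8 genes had all siRNA-2 libraries below all siRNA-1 libraries and 2 had all of them above, where the share over all genes tested was 16.2% below and 15.7% above. The choice of the genes by their largest fall with either siRNA bears on this split too. Without siRNA-1 replicate 4, THSD7A and LCP1 would also lie fully apart, as would THSD7A and SYTL5 without siRNA-2 replicate 1. The difference between siRNAs ran from -0.94 for SORL1 to 0.85 for CNTN1, so that the genes that siRNA-1 lowered most were not those that siRNA-2 lowered most.

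Ranked by fold change among 12375 protein-coding genes with an average log2 CPM of at least 1, GPAT3 was lowest with siRNA-1 and CNTN1 was next, followed by ROR1, SYTL5, THSD7A and LCP1. Just outside lay AKR1B10 (-1.99) and BVES (-1.97), then MAP2 at rank 9, TNC (-1.92) at rank 10, ABCA13 at rank 17 and SORL1 at rank 41. With siRNA-2, ABCA13 was at rank 4, SORL1 at rank 6 and MAP2 at rank 9, followed by AKR1C4 (-1.91) and MPZL3 (-1.86). The 3 genes ahead of ABCA13 had an SE above 1. SYTL5, LCP1, THSD7A and GPAT3 held ranks 17, 18, 20 and 23, and CNTN1 rank 49. Genes of similar rank that are not among the 8, such as ROR1, with log2 fold changes of -2.15 and -2.19, show that the list is a selection from the top and not the whole of it.

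Compared per length, as CPM per kb of merged exon, the order in the scrambled libraries was LCP1 at 2.48 ± 0.166 (SD, n = 4), SYTL5 at 2.32 ± 0.147, CNTN1 at 1.91 ± 0.0559 and GPAT3 at 1.90 ± 0.246. ABCA13 at 0.654 ± 0.0653, THSD7A at 0.553 ± 0.0341, MAP2 at 0.434 ± 0.00788 and SORL1 at 0.269 ± 0.038 followed. LCP1 did not differ from SYTL5, nor CNTN1 from GPAT3, beyond the spread of libraries, and the lower 4 were each apart from the next. The place of THSD7A above MAP2 is uncertain, since reads equal to 28.1% of those of THSD7A lay in the overlapping LOC105375153. With siRNA-2 the levels per kb of CNTN1 (0.753), LCP1 (0.79) and SYTL5 (0.727) came within their SDs of each other. These values count intronic reads over exon length and are only approximate.

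The genes are long and of modest level. Their intervals span 63.6 kb (LCP1) to 476 kb (ABCA13), and 6 of 8 are over 180 kb, where 9.25% of the 12375 ranked genes are that long. Their scrambled levels, 5.01 to 14.3 CPM, fall between percentiles 10 and 27.3 of those genes, whose median is 32.9 CPM. Among all ranked genes, longer ones were called lower more often. With siRNA-1, 22.2% of genes up to 20 kb, 31.0% at 20 to 60 kb, 39.5% at 60 to 180 kb and 45% over 180 kb were lower. With siRNA-2 the shares were 25%, 35.0%, 42.3% and 47.0%. Falls of at least 2-fold also became more frequent with span. With siRNA-1 their shares in the same 4 classes were 0.384%, 1.01%, 1.37% and 2.97%, and with siRNA-2 they were 0.513%, 1.22%, 1.97% and 2.97%. The part of length in the falls of the 8 genes was not tested.

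**Figure D3:**
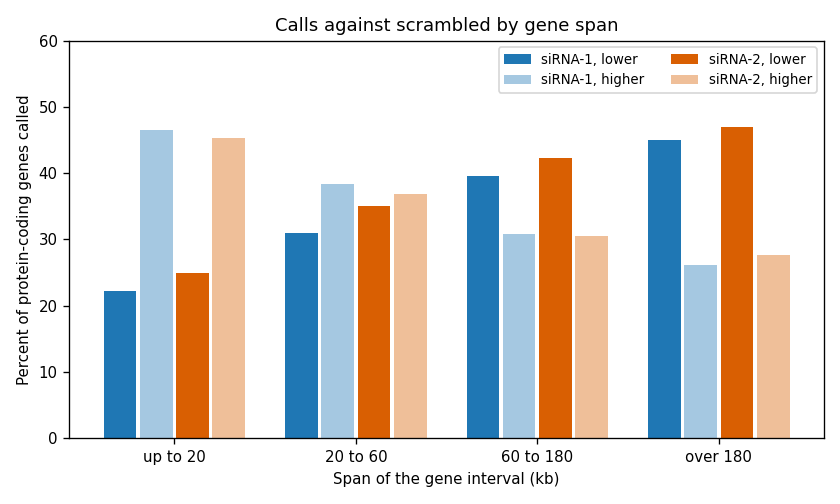
Percent of 12375 ranked protein-coding genes called lower (full colour) or higher (pale) against scrambled, by span of the gene interval in kb (horizontal axis), for siRNA-1 (blue) and siRNA-2 (orange). The share called lower rises with span from 22.2% to 45% with siRNA-1 and from 25% to 47.0% with siRNA-2; the span classes were set after the spans of the 8 genes were known.

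Relatives and partners of the 8 genes, listed by family and not by how they moved, included genes that fell and genes that rose. Of 106 listed genes 92 were tested. With siRNA-1, 30 fell and 25 rose (32.6% and 27.2%, against 24.8% and 28.5% of all genes tested), with a median log2 fold change of -0.05. With siRNA-2, 28 fell and 36 rose (30.4% and 39.1%, against 26.1% and 29.9%), with a median of 0.02. The shares of all genes tested include non-coding intervals, whereas the relatives are protein-coding. Those shares therefore do not show an excess or a shortfall among the relatives. Among ranked protein-coding genes spanning 20 to 60 kb, 31.0% were lower and 38.4% higher with siRNA-1. With siRNA-2, 35.0% of that class were lower and 36.8% higher. These shares changed with span, and the relatives range from below 20 kb to over 180 kb. That class is therefore not a matched background for them. By family, the share lower with siRNA-1 ran from 15.4% (synaptotagmin-like and RAB27 genes) to 58.3% (microtubule-associated genes), with 45.5% of the plastins and actin cross-linkers and 42.9% of the VPS10 receptors and retromer genes. With siRNA-2 the shares of these 4 lists were 23.1%, 50%, 36.4% and 35.7%. Of the 92 genes, 4 fell at least 2-fold with siRNA-1 and 2 with siRNA-2. The 8 genes were chosen for large falls, so the choice itself favours smaller falls in their relatives. Adjusted p-values below are from edgeR's quasi-likelihood test with Benjamini-Hochberg adjustment over all 24931 genes.

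The plastins fell together with LCP1 but by less. PLS3 went from 71.6 CPM in the scrambled libraries to 38.6 and 44.4 CPM with the siRNAs, log2 fold changes of -0.89 (SE 0.05) and -0.69 (SE 0.05). PLS1 fell by 0.79 (SE 0.12) and 0.63 (SE 0.12). In the whole list of plastins and actin cross-linkers, 5 of 11 fell and 4 rose with siRNA-1, and 4 fell and 4 rose with siRNA-2. CORO1A, a coronin of leukocytes, rose by 1.29 (SE 0.08) and 1.5 (SE 0.08), opposite in direction to LCP1, though up to 28.4% of its reads may be shared with LOC107984834, and the alpha-actinin gene ACTN1 rose by 0.50 and 0.47.

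Among the VPS10 receptors, SORT1, which encodes sortilin, fell with both siRNAs as SORL1 did, from 149 to 102 and 79.1 CPM, log2 fold changes of -0.54 (SE 0.05) and -0.91 (SE 0.05). GGA2, an adaptor for Golgi sorting, fell by 1.24 (SE 0.04) with siRNA-1 and by 0.36 (SE 0.04) with siRNA-2, the reverse order of SORL1. SORCS2 fell by 0.62 (SE 0.11) with siRNA-1, and was at -0.19 without passing the test with siRNA-2. SNX27, a retromer partner, rose by 0.59 and 0.41. Of 14 genes in this list, 6 fell and 2 rose with siRNA-1, and 5 fell and 3 rose with siRNA-2.

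GPAM, the mitochondrial acyltransferase gene of the same enzyme step as GPAT3, fell by 0.86 (SE 0.08) with siRNA-1 and by 1.09 (SE 0.08) with siRNA-2, and GPAT4, of which up to 17.6% of reads may be shared with GPAT4-AS1, by 0.14 (SE 0.04) and 0.35 (SE 0.04). The order of the siRNAs in both was opposite to that of GPAT3. LPIN3, a lipin phosphatase gene, rose by 1.20 (SE 0.13) and 0.86 (SE 0.13). In the glycerolipid list of 12 tested genes, 3 fell and 2 rose with siRNA-1, and 3 fell and 5 rose with siRNA-2.

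Neural adhesion genes related to CNTN1 moved in both directions. NCAM1, which encodes the neural cell adhesion molecule and shares up to 45.9% of its reads with LOC105369499, fell by 1.23 (SE 0.06) and 0.87 (SE 0.06), in the same order of siRNAs as CNTN1. NFASC, which encodes neurofascin, rose by 1.24 (SE 0.04) and 1.15 (SE 0.04) and L1CAM by 0.53 (SE 0.04) and 0.59 (SE 0.04). CNTN2, the contactin relative, rose from 0.145 to 1.11 and 0.905 CPM. CNTN4 rose with siRNA-2 by 1.77 (SE 0.49, adjusted p = 0.0105 by edgeR), or 2.72 without scrambled replicate 1, and with siRNA-1 was at 1.05 without passing the test (adjusted p = 0.109), or 1.99 without that library (adjusted p = 1.16e-07). Of 9 tested genes, 2 fell and 4 rose with siRNA-1, and 2 fell and 5 rose with siRNA-2.

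Microtubule-associated genes beside MAP2 had 7 of 12 lower and 4 higher with siRNA-1, and 6 lower and 5 higher with siRNA-2. Their median log2 fold change was -0.25 with siRNA-1 and -0.11 with siRNA-2. STMN1, which encodes stathmin, fell by 0.67 (SE 0.04) and 0.42 (SE 0.04). MAP4, the ubiquitous relative that may share up to 52.4% of its reads with DHX30, fell by 0.43 (SE 0.03) and 0.24 (SE 0.03). MAP6, which may share up to 26.6% of its reads with LOC105369391, rose by 0.80 (SE 0.06) with siRNA-1. The falls of these genes were all smaller than 2-fold.

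Of the ABCA transporters, 2 of 10 tested fell with each siRNA. ABCA3, the lipid transporter of lung surfactant, fell by 0.60 (SE 0.05) and 0.59 (SE 0.05), and ABCA4 by 0.60 (SE 0.12) and 0.92 (SE 0.13). ABCA12, a close relative of ABCA13 whose reads may all be shared with LOC101928103, did not pass the test, at -0.24 (SE 0.11, adjusted p = 0.0597) and 0.03 (SE 0.10). Without scrambled replicate 1 its siRNA-1 value was -0.28 (adjusted p = 0.0443), and without siRNA-1 replicate 2 it was -0.28 (adjusted p = 0.046). With all libraries it also passed with the size factors of DESeq2 (adjusted p = 0.0443), a filter of 1 CPM (0.033), protein-coding intervals alone (0.0253) and a fit of the 2 groups alone (0.0421).

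Synaptotagmin-like and RAB27 partner genes had 2 of 13 lower and 4 higher with siRNA-1, and 3 lower and 6 higher with siRNA-2. RAB27B fell by 0.79 (SE 0.06) and 0.31 (SE 0.06) and RAB3B by 0.77 (SE 0.06) and 0.68 (SE 0.06). MLPH, which encodes melanophilin, rose by 1.20 (SE 0.08) and 1.68 (SE 0.08), and SYTL4, which may share up to 52.8% of its reads with SRPX2, by 0.36 (SE 0.10) and 0.75 (SE 0.10). Of the thrombospondin repeat genes, 3 of 11 fell with each siRNA, and 4 and 5 rose. SEMA5A fell by 1.55 (SE 0.07) and 1.42 (SE 0.07), the largest fall among the relatives tested. THBS2, of whose reads up to 85.2% may be shared with LOC101929523, rose by 0.80 (SE 0.05) and 1.73 (SE 0.05). THSD7B, the closest relative of THSD7A, did not pass the test at -0.57 (SE 0.30) and -0.40 (SE 0.29).

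**Figure D4:**
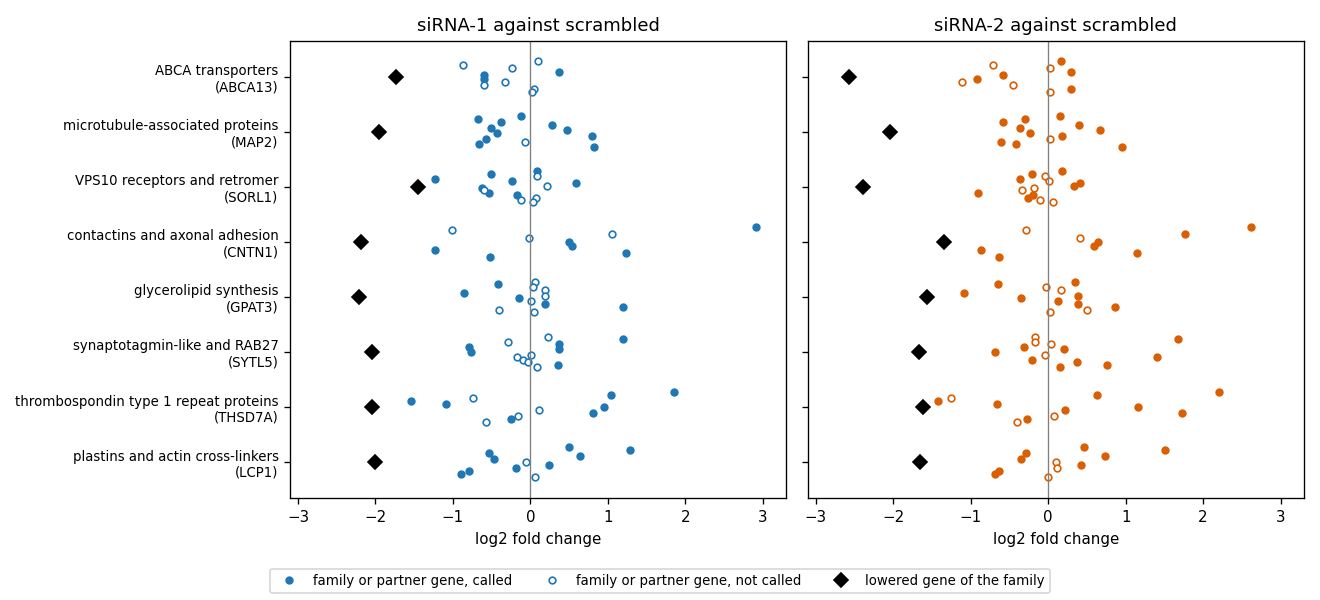
Log2 fold change against scrambled (horizontal axis) of 92 tested relatives and partners in 8 family lists, with siRNA-1 at left and siRNA-2 at right; filled points are called, open points not called, and black diamonds the lowered gene of the family. Every diamond lies left of all points of its row, which the choice of the 8 genes for large falls favours. The points lie on both sides of 0.

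The nearest tested protein-coding gene on either side, at whatever distance, was examined to see whether the falls extended along the chromosome. Of 16 such neighbours, 6 fell and 4 rose with siRNA-1, and 9 fell and 3 rose with siRNA-2 (37.5% and 56.2% lower, against 24.8% and 26.1% of all genes). The shares of all genes include non-coding intervals, so they may overstate any excess among these protein-coding neighbours. Among ranked protein-coding genes spanning 20 to 60 kb, 31.0% were lower with siRNA-1 and 35.0% with siRNA-2. That share rose with span, to 39.5% and 42.3% at 60 to 180 kb and to 45% and 47.0% over 180 kb. It was smaller up to 20 kb. The neighbours range from below 20 kb to over 180 kb, so no single class matches them. Several, such as UNC80 and PDZRN4, also lie below the level floor of the ranked genes. The difference from any of these backgrounds was not tested. Fitted on protein-coding intervals alone, 9 fell with siRNA-1. The median log2 fold change of the neighbours was -0.33 with siRNA-1 and -0.29 with siRNA-2. That is far from the median of the 8 genes, which were chosen for large falls.

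DYNLT3, a dynein light chain gene beside SYTL5, fell by 1.01 (SE 0.05) and 1.05 (SE 0.05), from 64.1 to 31.9 and 30.9 CPM. Its interval ends 0.808 kb from SYTL5 in the table, though the RefSeq genes lie 41.3 kb apart. SRPX, on the other side, fell by 0.60 (SE 0.06) with siRNA-1 and by 0.16 (SE 0.06, adjusted p = 0.0233 by edgeR) with siRNA-2, a call lost without scrambled replicate 3 (adjusted p = 0.0621), scrambled replicate 4 (0.061) or siRNA-2 replicate 1 (0.0787).

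UNC80, which encodes part of a sodium leak channel and lies 34.3 kb beyond MAP2, was at 0.653 CPM with scrambled siRNA and fell by 0.98 (SE 0.35, adjusted p = 0.0195) with siRNA-1 and by 2.33 (SE 0.39) with siRNA-2. Without scrambled replicate 1 the siRNA-1 value was -0.66 (adjusted p = 0.121). LRRK2, a kinase gene 323 kb before CNTN1, fell by 0.96 (SE 0.09) and 0.73 (SE 0.08), in the same order of siRNAs as CNTN1.

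Several other neighbours rose, fell by less than the gene beside them, or did not pass the test. NKX6-1, a homeobox gene 886 kb from GPAT3, rose by 0.65 (SE 0.12) and 1.32 (SE 0.11), and ABRAXAS1, 50.5 kb from GPAT3 on the other side, was at 0.00 (SE 0.06) and 0.04 (SE 0.06). ZC3H13, beside LCP1, rose by 0.21 (SE 0.04) and 0.24 (SE 0.04). SC5D, a sterol desaturase gene 137 kb from SORL1, rose by 0.21 (SE 0.05) with siRNA-1 and fell by 0.18 (SE 0.05) with siRNA-2. UPP1, beside ABCA13, was at -0.09 (SE 0.05) with siRNA-1 and fell by 0.22 (SE 0.05) with siRNA-2. Its siRNA-1 value passed with a filter of 1 CPM (adjusted p = 0.0451) or protein-coding intervals alone (0.0202). PIKFYVE, a lipid kinase gene 1064 kb before MAP2, fell by 0.17 (SE 0.05) and 0.36 (SE 0.05). TMEM106B, 379 kb from THSD7A, fell by 0.47 (SE 0.06) with siRNA-2 and by 0.18 (SE 0.06, adjusted p = 0.0271 by edgeR) with siRNA-1. That siRNA-1 call was lost without scrambled replicate 3 (adjusted p = 0.0784) or 4 (0.0833), or siRNA-1 replicate 1 (0.0781) or 4 (0.0647).

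Neighbours near or below 1 CPM were less certain. BLID, 481 kb from SORL1, rose by 0.93 (SE 0.28) with siRNA-2 and was at -0.62 (SE 0.31) with siRNA-1, or -1.04 (adjusted p = 0.0077 by edgeR) without siRNA-1 replicate 3. CDC14C, PDZRN4 and LRRC63 did not pass the test with either siRNA. CDC14C passed without scrambled replicate 2 (adjusted p = 0.0319 and 0.0345), without siRNA-1 replicate 2 for that siRNA (0.0314) and without siRNA-2 replicate 3 for the other (0.0302). It also passed with both siRNAs under the size factors of DESeq2 (adjusted p = 0.0453 and 0.0489), a filter of 1 CPM (0.033 and 0.0417) and protein-coding intervals alone (0.0398 and 0.0488), and with siRNA-2 in a fit of the 2 groups alone (0.0491). PDZRN4 passed with siRNA-1 without scrambled replicate 2 (adjusted p = 0.0256), siRNA-1 replicate 2 (0.0415) or siRNA-1 replicate 3 (0.0387), and with all libraries under no low-count filter (0.0398) or protein-coding intervals alone (0.0408).

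**Figure D5:**
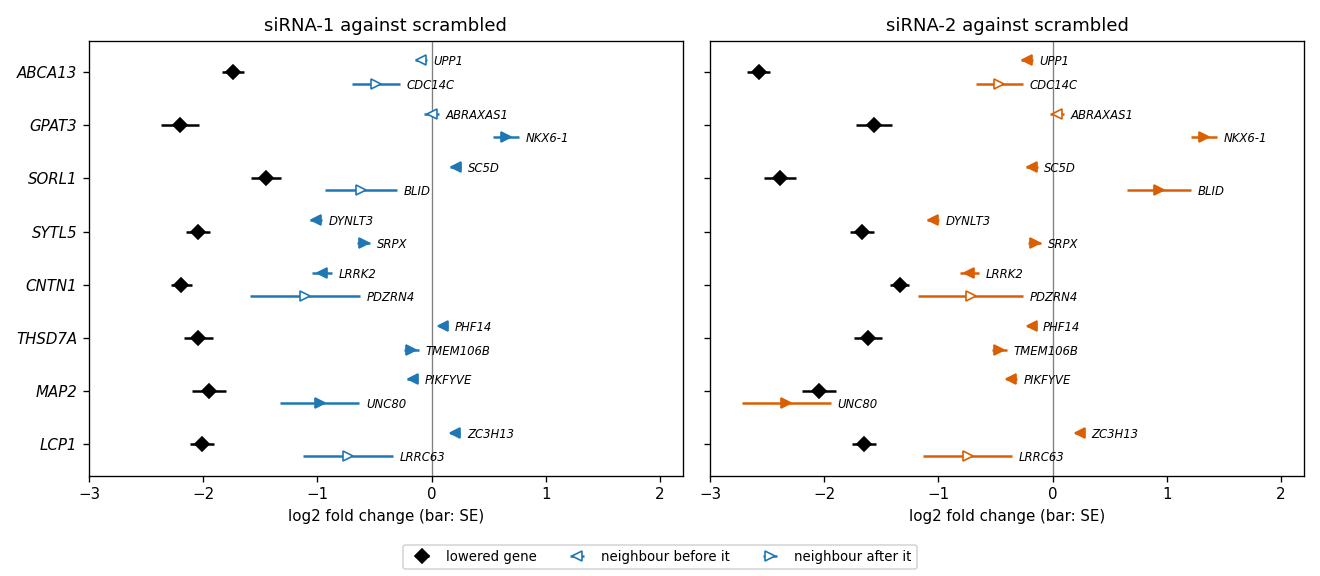
Log2 fold change (horizontal axis, bars SE) of each of the 8 genes (diamonds) and its nearest tested protein-coding neighbour on either side (triangles; filled where called), with siRNA-1 at left and siRNA-2 at right. Apart from UNC80 beside MAP2 with siRNA-2, each of the 8 genes lies to the left of both its neighbours. The choice of the 8 genes for large falls favours this order.

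Genes whose log2 CPM followed the 8 genes most closely over the 12 libraries were found among 12374 others, and the likeness mostly repeats the order of the 3 groups. ABCA13 was most like PPP2R3C (r = 0.993) and HOXA10 (r = 0.993), SORL1 like SYNJ2BP-COX16 (r = 0.996) and UNC5B (r = 0.993). CNTN1 was most like ANXA2 (r = 0.994) and IPO9 (r = 0.992), and GPAT3 like ENOSF1 (r = 0.980) and GINS4 (r = 0.977). SYTL5 was most like GPSM2 (r = 0.994) and ARNTL2 (r = 0.992), THSD7A like TGFBR2 (r = 0.993) and SVIL (r = 0.991). MAP2 was most like CAMKK1 (r = 0.992) and ENPP1 (r = 0.992), and LCP1 like MYO10 (r = 0.989) and ECPAS (r = 0.988). Their falls were often smaller: ANXA2, which encodes annexin A2, was at -0.84 (SE 0.04) and -0.52 (SE 0.04) on the log2 scale, and MYO10, an unconventional myosin gene, at -1.82 (SE 0.07) and -1.48 (SE 0.07).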

How the data were processed

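The authors deposited 1 table of raw whole-number counts of reads per gene interval for all 12 libraries, with no normalization, per the file headers. The submitters' processing notes name Salmon and hg38; which tool counted reads per interval is not stated there. Each interval runs over a whole gene, introns included, and reads in an overlap count for both genes whatever their strand. Of 48769 gene intervals, 44341 were used, leaving out those that reach over 100000 bases beyond their gene, repeat another interval, or hold ribosomal RNA.

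edgeR 4.0.16 (R 4.3.3) was fitted to the 12 libraries together with no term but group (TMM, filterByExpr with a minimum count of 10 and total of 15, robust quasi-likelihood, two-sided, Benjamini-Hochberg adjustment, threshold 0.05). SE is the log2 fold change over the square root of F. The test was also run on counts simulated with the spread estimated from these data. Such a run cannot show whether the model suits the data or whether the libraries are independent. Alternatives included DESeq2 1.42.0, other filters, a replicate block and leaving out each library. The 8 genes, the lists, and the naming rule (all 8, relatives, neighbours, look-alikes, genes just outside) were chosen with earlier results of these data known. Precision is limited to 36 to 695 reads per gene and library. Figures used matplotlib 3.10.9.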

Additional observations from a re-analysis of the deposited data

Results flagged for a closer look

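Of 192 groups of 4 libraries examined over 64 genes, 12 had 1 library far from the other 3, and chance alone flags about 1 in 20 groups. Among the 8 genes this was THSD7A in scrambled replicate 2 (5.49 CPM, others 6.21 to 6.26) and LCP1 in scrambled replicate 4 (11.3 CPM, others 12.9 to 13.2). Scrambled replicate 1 was high for ABCA4 (4.52 CPM), CNTN3 (0.846 CPM) and THSD7B (2.16 CPM) and low for LRRC63 (0.223 CPM), and scrambled replicate 4 was low for ADGRB2 (29.7 CPM). In the siRNA groups 1 library was high for PLS3 (40.8 CPM, siRNA-1 replicate 2), SYTL4 (4.07 CPM, siRNA-1 replicate 1), CDC14C (1.08 CPM, siRNA-2 replicate 3), MAP9 (29 CPM, siRNA-2 replicate 2) and SYTL3 (265 CPM, siRNA-2 replicate 1).

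Neighbours PHF14 and SC5D differed between the siRNAs, with values on opposite sides of 0. PHF14 was 0.10 with siRNA-1 and -0.18 with siRNA-2, a difference of -0.29 (adjusted p = 1.5e-06 by edgeR). The siRNA-1 value of PHF14 passed with all libraries (adjusted p = 0.0232) but not without scrambled replicate 1 (0.105) or 2 (0.0831), or siRNA-1 replicate 2 (0.188), 3 (0.123) or 4 (0.0612). With all libraries it was also lost under the size factors of DESeq2 (0.0661), no low-count filter (0.204), a filter of 1 CPM (0.0589), protein-coding intervals alone (0.152) and a fit of the 2 groups alone (0.0746). SC5D was at 0.21 and -0.18, a difference of -0.39 (adjusted p = 9.02e-07 by edgeR).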

How the results depend on the processing

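The counts of genes fully below scrambled (8 with each siRNA) were the same under all 20 alternatives. The choice of the genes fixed these counts, so their sameness is no check of the falls. Leaving out 1 library gave 30 to 32 relatives lower and 23 to 28 higher for siRNA-1, 27 to 30 and 35 to 38 for siRNA-2, 5 to 8 and 8 to 10 neighbours lower, and 4 to 6 genes fully apart between siRNAs. The same-numbered libraries did not deviate together (r -0.122 to 0.103). The labels state no pairing, and these values cannot exclude one. With a replicate block, relatives lower and higher numbered 30 and 24 for siRNA-1 and 29 and 37 for siRNA-2, and neighbours lower 6 and 9. The difference of MAP2 between siRNAs changed sign without siRNA-1 replicate 1 or siRNA-2 replicate 1 (0.003 each), and was -0.30 without the 2 libraries rich in ribosomal RNA, an alternative chosen after seeing the data. Calls of PHF14, TMEM106B and UNC80 with siRNA-1, and of MAP6 and SRPX with siRNA-2, were lost without 1 or more single libraries. That of PHF14 was also lost under 5 choices of scaling, filter, intervals or groups (adjusted p 0.0589 to 0.204), and that of MAP6 under no low-count filter (0.0802), protein-coding intervals alone (0.0504) and DESeq2 (0.0799). ABCA12, CDC14C, PDZRN4 and UPP1, not called with siRNA-1, passed under 2 or more such choices. Counting error is large for UNC80 (4 to 48 counts per library) and PDZRN4 (1 to 39). In the scrambled group of both genes, and of CNTN4 (81 counts against 9 to 25), replicate 1 was the highest library.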
